A study of Mus musculus with 10 samples.

Results

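The genes of the major histocompatibility complex (MHC) and of antigen presentation were examined in RNA-seq of the mouse uterus. The members were the protein-coding genes whose symbol begins with *H2-*, together with *B2m*, *Tap1*, *Tap2*, *Tapbp*, *Erap1*, *Nlrc5*, *Psmb8*, *Psmb9*, *Psmb10*, *Psme1*, *Psme2*, *Cd74*, *Ctss* and *Ciita*. This gave 41 of the 29268 genes in the deposited table, of which 27 carry an *H2-* symbol and 32 lie on chromosome 17. One of them, *H2-Ke6*, is included by its name alone, since it encodes a steroid dehydrogenase (synonym *Hsd17b8*) and not a presenting molecule. The study compared 5 HSD17B1TG mice with 5 wild-type (WT) mice, all females of the FVB/N strain at the age of 4 months, with 1 library for each mouse. HSD17B1TG mice carry the cDNA of human *HSD17B1*, the enzyme that converts estrone to estradiol, under a chicken beta actin promoter with a CMV enhancer that is active throughout the body, and the line is kept heterozygous. HSD17B1TG females do not cycle, while WT uteri were taken without selecting a cycle phase according to the histology methods, so cycle state and transgene cannot be told apart. The mice are called TG1 to TG5 and WT1 to WT5 here. The human transgene is not a row of the mouse gene table, so the labels were not checked against it. The libraries held 14817228 to 23271988 counts on genes, and 3 counts correspond to 0.202 CPM (counts of a gene scaled to library size) in the mouse with the lowest total, a limit that covers counting error only. The labels name no batch, litter or date.

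Class I molecules present peptides made in the cell to CD8+ T cells and are ligands of natural killer cell receptors. They consist of a heavy chain, such as those encoded by *H2-K1* and *H2-D1*, and the invariant light chain beta-2-microglobulin (*B2m*). Proteasomes cut the peptides, the transporter Tap1/Tap2 carries them into the endoplasmic reticulum, and tapasin (*Tapbp*) holds the heavy chain at the transporter. Class II molecules (*H2-Aa* with *H2-Ab1*) present peptides from endosomes to CD4+ T cells, mainly on dendritic cells, macrophages and B cells. In the uterus, class I is present on most nucleated cells, while class II marks mainly leucocytes, and epithelial cells can be induced to express it.

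The classical class I heavy chain *H2-D1*, the non-classical *H2-Q4*, the transporter subunit *Tap2* and the class II pathway protease *Ctss* (cathepsin S) were higher in HSD17B1TG mice, while the class II chains and *Cd74* showed no difference that passed the test. Of the 41 members, 35 had enough counts to be tested by edgeR and 31 had a mean above 1 FPKM in at least 1 group, where FPKM is the number of fragments scaled to gene length and library size. The library size behind the deposited FPKM is not the total of counts on genes alone, since the values also carry a further factor of each mouse. By edgeR with Benjamini-Hochberg adjustment over 16993 genes, 4 members had an adjusted p under 0.05 with higher levels in HSD17B1TG mice, in a table where 3.34% of the genes tested did so. No member was lower at that threshold, against 2.81% of the genes tested, while 2 were lower at an unadjusted p under 0.05 (*H2-T22* and *H2-M5*), against 11.4% of the genes tested. When a change of more than 2-fold and a group mean above 1 FPKM were also required, 2 members were called up, *H2-Q4* and *Ctss*, against 2.16% of the genes tested, and 0 were called down, against 2.08%. DESeq2 called 5 members up (*H2-Q4*, *Ctss*, *H2-K1*, *H2-Q1* and *H2-Q2*) against 4.17% of the genes it tested, and 10 members had an adjusted p under 0.05 with higher levels, against 7.31%. At an unadjusted p under 0.05 there were 12 higher members in edgeR, against 14.7% of the genes tested. The log2 fold change was above 0 in 23 of the 35 members, against 50.2% of the genes tested, with a median of 0.37 beside 0.00 over all genes. These counts depended on single mice. Without TG1 the members called up were 7, without TG3 they were 2 and without WT4 they were 3. When TG2, TG4, TG5, WT1, WT2, WT3 or WT5 was the mouse left out, none was called, and the number of all genes called up then fell from 367 to between 38 and 100.

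**Figure D1:**
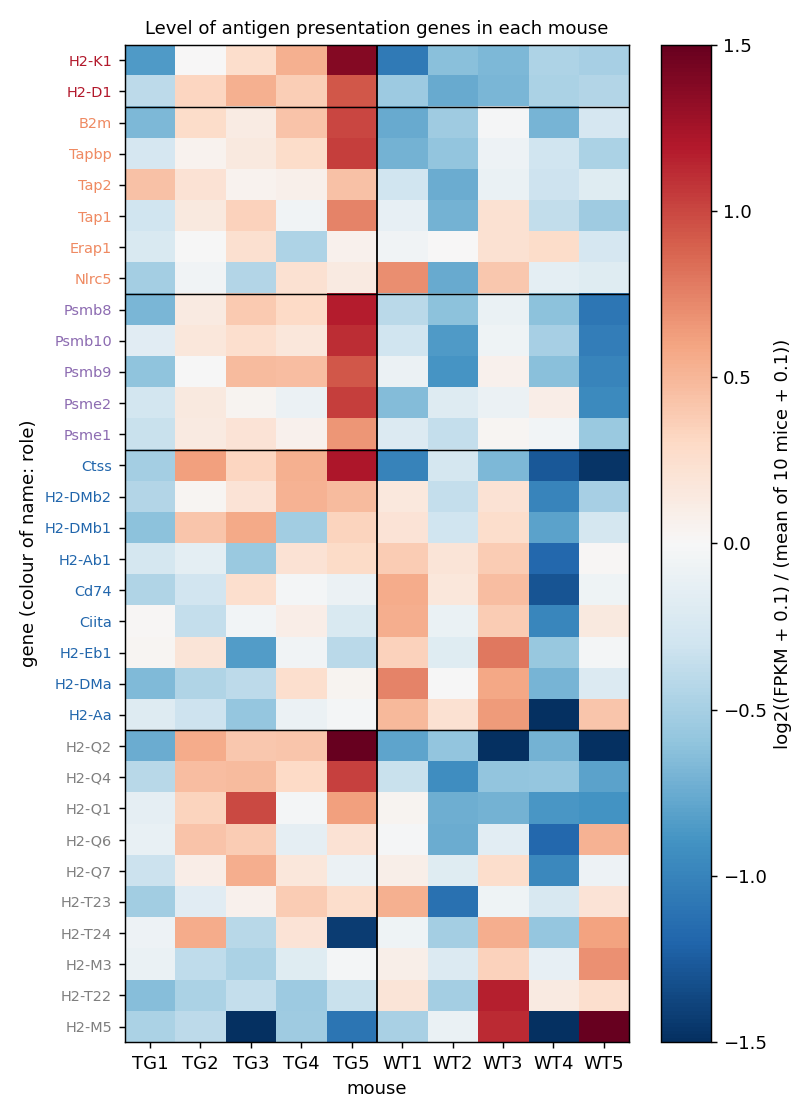
Heat map of the level of 31 members with a mean over 1 FPKM in at least 1 group, and of *Ciita*, in each of the 10 mice. Colour is log2 of (FPKM + 0.1) over (the mean of all 10 mice + 0.1), red above and blue below that mean, with genes grouped by role and ordered by log2 fold change within a role. Classical class I and immunoproteasome rows are reddest in TG5 and pale or blue in TG1, and most class II rows are bluest in WT4, other than *Ctss* (lowest in WT5) and *H2-Eb1* (lowest in TG3).

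*H2-D1* and *H2-K1* encode the classical class I heavy chains, which present peptides to CD8+ T cells. *H2-D1* (17:35262730-35267499, plus strand, GRCm38) was at 257, 423, 489, 436 and 644 FPKM in TG1 to TG5 and at 233, 200.2, 211, 244 and 249 FPKM in WT1 to WT5. All 5 HSD17B1TG mice were above all WT mice, although TG1 only just, and such a separation with HSD17B1TG above WT was found for 4.04% of the genes tested. The mean was 449.7 ± 139 FPKM (SD, n = 5) against 228 ± 21.1 FPKM in WT, a log2 fold change of 0.98 ± 0.23 (SE; edgeR, adjusted p = 0.0368). *H2-K1* (17:33996017-34000333, minus strand) was at 55.4, 100.4, 120.3, 145 and 259 FPKM in TG1 to TG5 and at 47.7, 64.8, 62.4, 72.2 and 70.9 FPKM in WT1 to WT5. TG1 lay within the WT range, and the other 4 HSD17B1TG mice lay above it. The log2 fold change of *H2-K1*, 1.09 ± 0.34, was as large as that of *H2-D1*, but its HSD17B1TG values spread more (136 ± 76.3 against 63.6 ± 9.76 FPKM) and it did not pass the threshold in edgeR (adjusted p = 0.0757). It passed in DESeq2 (adjusted p = 0.0245) and in edgeR without TG1 (adjusted p = 0.0215), but in none of the other 9 edgeR fits that lacked 1 mouse, with adjusted p up to 0.156 and a log2 fold change of 0.72 without TG5.

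*H2-Q4*, a non-classical class I heavy chain of the Q region (17:35379617-35385290, plus strand), was at 22.4, 41.2, 41.8, 37.0 and 60.9 FPKM in TG1 to TG5 and at 23.7, 15.6, 19.8, 20 and 17.1 FPKM in WT1 to WT5. TG1 was again inside the WT range and the other 4 were above it. The mean was 40.7 ± 13.8 against 19.2 ± 3.13 FPKM, 2.11-fold higher (log2 fold change 1.08 ± 0.23, edgeR, adjusted p = 0.0317). The adjusted p of *H2-Q4* lay between 0.0115 and 0.0823 when each mouse was left out in turn, and that of *H2-D1* between 0.0123 and 0.0970. For both genes it stayed under 0.05 without TG1, TG3 or WT4, and it rose above 0.05 without TG2, TG4, TG5, WT1, WT2, WT3 or WT5. The log2 fold change was above 0 in each of these fits, between 0.88 and 1.23 for *H2-Q4* and between 0.81 and 1.13 for *H2-D1*.

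The 2 classical heavy chains and *H2-Q4* share an arrangement of promoter letters, which is why the 250 bases before their transcription starts are shown. The promoter of *B2m*, their light chain, and that of *Ctss* are shown for comparison. Sequences are from RefSeq on GRCm38.p6, written 5′ to 3′ along the strand of the gene and ending at the base before the start, and 34 of the 41 members matched an entry. Capitals mark matches on either strand to GGGNNTTCC (a core bound by NFKB), GAAANNGAA or GAANNGAAA (cores of the interferon-stimulated response element, which can overlap each other) and ATTGG (an inverted CCAAT, the Y box).
H2-D1, chr17:35262844-35263093, plus strand: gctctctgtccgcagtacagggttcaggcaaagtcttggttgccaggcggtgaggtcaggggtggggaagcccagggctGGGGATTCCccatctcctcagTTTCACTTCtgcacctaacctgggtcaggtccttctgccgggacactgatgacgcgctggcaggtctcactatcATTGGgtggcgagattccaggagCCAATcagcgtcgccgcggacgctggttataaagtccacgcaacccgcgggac
H2-K1, chr17:34000334-34000583, minus strand: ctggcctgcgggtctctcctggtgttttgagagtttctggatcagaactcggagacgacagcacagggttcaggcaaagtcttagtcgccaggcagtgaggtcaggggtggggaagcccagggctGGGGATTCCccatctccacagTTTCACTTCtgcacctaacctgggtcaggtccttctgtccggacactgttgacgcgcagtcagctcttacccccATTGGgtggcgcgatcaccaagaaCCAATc
H2-Q4, chr17:35379367-35379616, plus strand: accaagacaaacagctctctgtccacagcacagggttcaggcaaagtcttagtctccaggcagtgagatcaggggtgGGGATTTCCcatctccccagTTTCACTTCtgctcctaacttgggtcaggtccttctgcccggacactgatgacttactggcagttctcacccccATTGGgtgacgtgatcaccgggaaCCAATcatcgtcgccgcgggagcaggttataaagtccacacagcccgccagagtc
B2m, chr2:122147437-122147686, plus strand: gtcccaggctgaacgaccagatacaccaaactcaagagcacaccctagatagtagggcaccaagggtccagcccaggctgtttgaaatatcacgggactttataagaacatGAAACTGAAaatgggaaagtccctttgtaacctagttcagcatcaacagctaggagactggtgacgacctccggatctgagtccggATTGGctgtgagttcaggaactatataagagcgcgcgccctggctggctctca
Ctss, chr3:95526536-95526785, plus strand: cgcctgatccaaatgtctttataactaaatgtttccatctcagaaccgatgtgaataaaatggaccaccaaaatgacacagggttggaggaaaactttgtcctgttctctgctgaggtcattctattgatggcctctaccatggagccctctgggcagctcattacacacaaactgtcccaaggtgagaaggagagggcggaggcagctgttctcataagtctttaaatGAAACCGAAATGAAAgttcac

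In the window of *H2-D1* the first letter of GGGNNTTCC lay 171 bases before the start, that of the reverse complement of GAANNGAAA 150 bases before it and that of ATTGG 76 bases before it. The same 3 matches came in the same order in *H2-K1*, at 125, 104 and 30 bases before the start, and in *H2-Q4*, at 173, 153 and 79 bases. A match to GGGNNTTCC followed 93 to 95 bases later by ATTGG, both on the strand of the gene, was found in 6 of the 32851 mouse promoter windows in the table. All 6 belonged to class I heavy chains, *H2-D1*, *H2-K1* (with 2 starts), *H2-Q4*, *H2-Q6* and *H2-Q7*. Matches to ATTGG on the other strand were not counted, such as that of *H2-M2*, with GGGNNTTCC at 179 and ATTGG at 84 bases before the start. The levels of *H2-Q6* and *H2-Q7* did not differ between groups beyond the spread between mice, with log2 fold changes of 0.37 ± 0.31 and 0.23 ± 0.27. *B2m* had GAAANNGAA at 139 bases and ATTGG at 53 bases before the start, and *Ctss* had GAAANNGAA at 21 bases and GAANNGAAA at 15 bases before it. Over the 38 promoter windows of members, GGGNNTTCC was found in 9, GAAANNGAA in 6, GAANNGAAA in 11 and ATTGG in 27. Of all 32851 windows, 5.82%, 8.56%, 7.52% and 37.4% held these letters. GAANNGAAA and the spacing were looked for after the sequences had been seen, and a match is a string of letters and not a measured binding site. The start of *H2-D1* in RefSeq lies inside the longer gene model of the deposited table.

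The remaining class I heavy chains were expressed at lower levels and did not move in 1 direction. *H2-Q2*, of the Q region, was at 4.79 ± 2.84 FPKM in HSD17B1TG and 1.29 ± 0.758 FPKM in WT mice (log2 fold change 1.88 ± 0.54, edgeR, adjusted p = 0.0619), with 4 of 5 HSD17B1TG mice above all WT mice. *H2-Q1* was at 1.92 ± 0.671 against 0.909 ± 0.314 FPKM (log2 fold change 1.07 ± 0.32, edgeR, adjusted p = 0.0649), with 3 of 5 above. Neither difference passed the threshold in edgeR, and both did in DESeq2, with adjusted p of 0.00621 and 0.0140. *H2-Q6* was at 6.08 ± 1.12 against 4.67 ± 2.11 FPKM and *H2-Q7*, which encodes a Qa-2 antigen, at 2.20 ± 0.528 against 1.86 ± 0.554 FPKM. *H2-T23* encodes Qa-1, the ligand of the inhibitory receptor CD94/NKG2A of natural killer cells. It was at 1.34 ± 0.336 FPKM in HSD17B1TG and 1.27 ± 0.513 FPKM in WT mice, a log2 fold change of 0.07 ± 0.34 whose sign turned without TG4 and without WT2. *H2-T24* was at 0.973 ± 0.474 against 1.11 ± 0.464 FPKM (log2 fold change -0.19 ± 0.44).

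Class I heavy chains with larger negative fold changes were *H2-M3*, which presents N-formylated peptides, *H2-T22*, a ligand of some gamma delta T cells, and *H2-M5*. *H2-M3* was at 5.71 ± 0.753 against 7.67 ± 2.03 FPKM (log2 fold change -0.43 ± 0.22, edgeR, adjusted p = 0.244). *H2-T22* was at 0.543 ± 0.0552 against 1.03 ± 0.508 FPKM (log2 fold change -0.93 ± 0.34, edgeR, adjusted p = 0.111). Its HSD17B1TG values lay between 0.471 and 0.602 FPKM and its WT values between 0.524 and 1.89 FPKM, so the groups overlapped. *H2-M5* was at 0.346 ± 0.174 against 1.01 ± 0.860 FPKM (log2 fold change -1.54 ± 0.69, edgeR, adjusted p = 0.189), with 1 HSD17B1TG mouse below all WT mice. *H2-Q10*, which was tested at a mean under 1 FPKM in both groups, had a log2 fold change of 0.38 ± 0.59. *H2-M2*, *H2-M9*, *H2-M10.2*, *H2-T3*, *H2-Ke6* and the class II gene *H2-Eb2* did not pass edgeR's filter on low counts, with at most 14 counts and 0.387 FPKM in any mouse, and none had an adjusted p under 0.05 in DESeq2, which gave no adjusted p for *H2-M2*, *H2-M9* and *H2-M10.2*.

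Counts of the 17 class I heavy chain genes were added in each mouse as CPM, since reads of these related genes may be shared among them. The sum was 909, 1539, 1729, 1668 and 2587 CPM in TG1 to TG5 and 838, 774, 828, 901 and 943 CPM in WT1 to WT5. TG1 was inside the WT range and the other 4 HSD17B1TG mice were above it, with means of 1686 ± 599.8 and 857 ± 66.0 CPM, a ratio of 1.97. *H2-D1* made up between 64.8% and 73.1% of these counts in each mouse. Without *H2-D1* the ratio of the means was 1.96, and without *H2-D1* and *H2-K1* it was 1.65. Among the 15 genes then left, *H2-Q4* had the most counts in every mouse, 1084 to 2461 in HSD17B1TG and 769 to 1515 in WT mice. The ratio of 1.65 therefore does not show a rise across the other heavy chains.

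**Figure D2:**
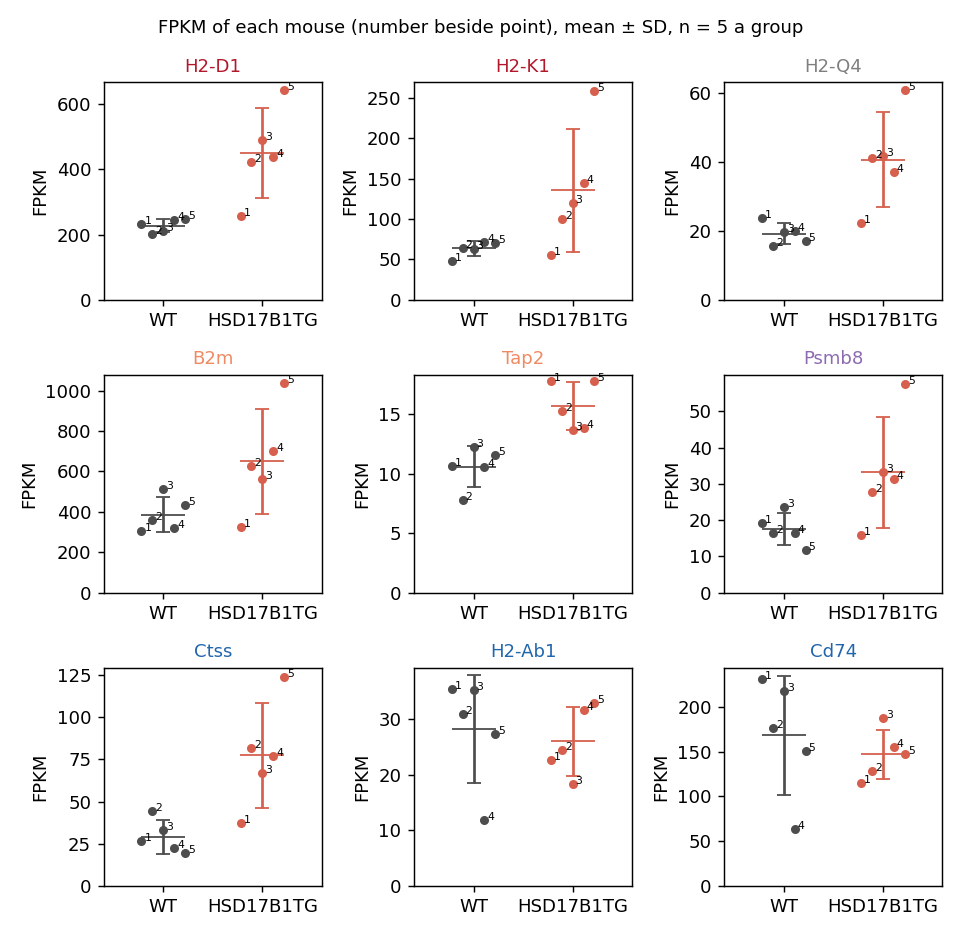
FPKM of 9 members in each mouse, on linear axes that start at 0, with the mouse number beside each point and the mean ± SD of the 5 mice of a group as a bar with whiskers. HSD17B1TG and WT do not overlap for *H2-D1* and *Tap2*, TG1 lies in the WT range for *H2-K1*, *H2-Q4*, *B2m*, *Psmb8* and *Ctss*, and the groups overlap fully for *H2-Ab1* and *Cd74*.

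*B2m*, the light chain that every class I heavy chain needs at the cell surface, was the member with the highest level in both groups. It was at 324, 628, 563, 699 and 1039 FPKM in TG1 to TG5 and at 306, 359.7, 513, 319.5 and 434 FPKM in WT1 to WT5. The 4 mice TG2 to TG5 were above all WT mice and TG1 was not, and the difference did not pass the threshold (log2 fold change 0.75 ± 0.28, edgeR, adjusted p = 0.128). Without TG1 it did (log2 fold change 0.92, edgeR, adjusted p = 0.0350), and without any other mouse it did not, with a log2 fold change of 0.51 and an adjusted p of 0.265 without TG5. *Tap2*, a subunit of the peptide transporter, was at 17.8, 15.3, 13.7, 13.9 and 17.8 FPKM in TG1 to TG5 and at 10.7, 7.82, 12.3, 10.6 and 11.6 FPKM in WT1 to WT5. Here TG1 was among the highest, and all 5 HSD17B1TG mice were above all WT mice. The log2 fold change of *Tap2* was 0.56 ± 0.15 (edgeR, adjusted p = 0.0493). This value lay just under the threshold, and it was 0.0461 without TG3 and under 0.05 also without WT4, and above 0.05, at most 0.107, without any other mouse. *Tap2* also did not pass in edgeR with a filter of at least 1 CPM in 5 mice (adjusted p = 0.0520), with no filter (0.0883) and with upper quartile scaling (0.0722).

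*Tap1*, the partner of *Tap2*, was at 6.42, 8.83, 10.1, 7.67 and 13.4 FPKM in TG1 to TG5 and at 7.27, 4.83, 9.31, 6.15 and 5.44 FPKM in WT1 to WT5. The groups overlapped, with 2 HSD17B1TG mice above all WT mice (log2 fold change 0.49 ± 0.23, edgeR, adjusted p = 0.208). *Tapbp* was at 79.4 ± 29.7 against 47.6 ± 8.48 FPKM (log2 fold change 0.73 ± 0.24, edgeR, adjusted p = 0.0829), with 4 of 5 HSD17B1TG mice above all WT mice, and it passed in DESeq2 (adjusted p = 0.0431). *Erap1*, the aminopeptidase that trims peptides in the endoplasmic reticulum, was at 7.70 ± 1.43 against 8.35 ± 1.25 FPKM (log2 fold change -0.12 ± 0.16). *Nlrc5*, the transactivator of class I genes, was at 0.840, 1.19, 0.882, 1.47 and 1.36 FPKM in TG1 to TG5 and at 2.07, 0.688, 1.66, 1.11 and 1.08 FPKM in WT1 to WT5. The values of *Nlrc5* in HSD17B1TG mice lay inside the WT range (log2 fold change -0.20 ± 0.31, edgeR, adjusted p = 0.719). None of 9 further peptide loading and endoplasmic reticulum chaperone genes (*Calr*, *Canx*, *Pdia3* and others) passed the threshold in edgeR, and 2 of them, *Tapbpl* and *Lnpep*, were higher at an unadjusted p under 0.05.

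In the immunoproteasome, *Psmb8*, *Psmb9* and *Psmb10* replace the catalytic subunits *Psmb5*, *Psmb6* and *Psmb7* of the constitutive proteasome, and *Psme1* and *Psme2* form its PA28 activator. All 5 genes had log2 fold changes above 0, with a median of 0.79, and none passed the threshold in edgeR, while *Psmb8*, *Psmb9* and *Psmb10* were higher at an unadjusted p under 0.05. Of all genes tested 50.2% had log2 fold changes above 0 and 14.7% were higher at an unadjusted p under 0.05. *Psmb8* was at 15.8, 27.8, 33.3, 31.3 and 57.7 FPKM in TG1 to TG5 and at 19.1, 16.6, 23.7, 16.6 and 11.9 FPKM in WT1 to WT5. Again TG1 was within the WT range and the other 4 were above it (log2 fold change 0.91 ± 0.30, edgeR, adjusted p = 0.0905, DESeq2, adjusted p = 0.0470). *Psmb10* was at 42.8 ± 16.3 against 23.2 ± 6.32 FPKM (log2 fold change 0.88 ± 0.26, edgeR, adjusted p = 0.0667, DESeq2, adjusted p = 0.0269). *Psmb9* was at 10.1 ± 3.78 against 5.84 ± 1.97 FPKM (log2 fold change 0.79 ± 0.30, edgeR, adjusted p = 0.133). *Psme1* was at 65.3 ± 16.5 against 49.5 ± 7.98 FPKM and *Psme2* at 71.0 ± 29.2 against 48.2 ± 13.6 FPKM, with log2 fold changes of 0.39 ± 0.19 and 0.56 ± 0.28. TG5 was the highest and TG1 the lowest HSD17B1TG mouse for all 5 genes, as for *H2-K1* and *H2-D1*, and WT5 was the lowest WT mouse for all 5. Of 14 genes of the constitutive proteasome core none passed the threshold in edgeR and 1, *Psmb5*, was higher at an unadjusted p under 0.05, and their log2 fold changes lay between -0.20 and 0.42.

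The ratio of each immunoproteasome subunit to the subunit it replaces was taken within each mouse, where it does not depend on the scaling of the library. Of the subunits replaced, *Psmb5* was at 104 ± 27.6 against 77.1 ± 13.5 FPKM, *Psmb6* at 69.1 ± 9.57 against 65.0 ± 7.91 FPKM and *Psmb7* at 16.0 ± 4.04 against 16.3 ± 2.91 FPKM. *Psmb10*/*Psmb7* was 1.62, 2.16, 1.86, 2.92 and 6.38 in TG1 to TG5 and 1.49, 1.33, 1.93, 1.16 and 1.20 in WT1 to WT5. The difference of the mean log2 ratio was 0.90 (two-sided exact permutation test, p = 0.0238, adjusted over 3 ratios 0.0714). For *Psmb9*/*Psmb6* the ratio was 0.0827 to 0.189 in HSD17B1TG and 0.0666 to 0.132 in WT mice, with a difference of 0.68 (exact permutation p = 0.0476, adjusted 0.0714). For *Psmb8*/*Psmb5* it was 0.207 to 0.388 and 0.165 to 0.314, with a difference of 0.43 (exact permutation p = 0.111, adjusted 0.111). In each ratio 3 of 5 HSD17B1TG mice were above all WT mice, and no ratio passed after adjustment. Without TG1 all 3 did (exact permutation, adjusted p = 0.0397 for each), with differences of 1.08, 0.87 and 0.56. Without any other mouse none did, with adjusted p up to 0.143, 0.167 and 0.214, and without TG5 the difference of *Psmb10*/*Psmb7* was 0.58 (exact permutation).

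**Figure D3:**
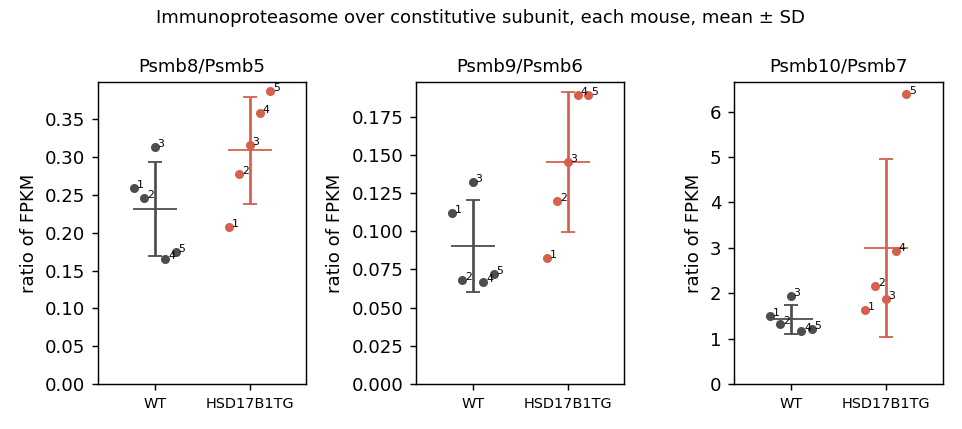
Ratio of the FPKM of *Psmb8* to *Psmb5*, of *Psmb9* to *Psmb6* and of *Psmb10* to *Psmb7* in each mouse, on linear axes that start at 0, with the mean ± SD of each group and the mouse number beside each point. In each panel 3 HSD17B1TG mice lie above all WT mice, and TG5 stands alone at 6.38 for *Psmb10*/*Psmb7*.

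The class II genes had a median log2 fold change of -0.12 over 11 genes tested, and 1 gene, *Ctss*, passed the threshold, upwards, as did 3.34% of all genes tested. *H2-Aa*, the alpha chain of the I-A molecule, was at 9.05, 8.28, 6.86, 9.70 and 10.1 FPKM in TG1 to TG5 and at 14.5, 12.1, 16.1, 2.82 and 13.8 FPKM in WT1 to WT5. The 4 mice WT1, WT2, WT3 and WT5 were above all HSD17B1TG mice, WT4 was below all of them, and the difference did not pass (log2 fold change -0.44 ± 0.37, edgeR, adjusted p = 0.496). Without WT4 it did (log2 fold change -0.69, edgeR, adjusted p = 0.0269), and without any other mouse it did not (adjusted p up to 0.690). *H2-Ab1*, its beta chain, was at 22.6, 24.5, 18.4, 31.6 and 33.0 FPKM in TG1 to TG5 and at 35.4, 31.0, 35.3, 11.9 and 27.4 FPKM in WT1 to WT5. All HSD17B1TG values of *H2-Ab1* fell inside the WT range (log2 fold change -0.12 ± 0.28, edgeR, adjusted p = 0.824). *H2-Eb1*, the beta chain of I-E, was at 1.72, 1.94, 0.898, 1.62 and 1.25 FPKM in TG1 to TG5 and at 2.16, 1.47, 2.99, 1.10 and 1.65 FPKM in WT1 to WT5, with a log2 fold change of -0.34 ± 0.35.

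*Cd74*, the invariant chain that guides class II molecules to endosomes and blocks their groove until it is cut, was at 115, 129, 188, 155 and 148 FPKM in TG1 to TG5 and at 232, 177, 218, 64.0 and 151 FPKM in WT1 to WT5. The HSD17B1TG mice lay within the WT range, and the difference did not pass the threshold in edgeR (log2 fold change -0.20 ± 0.30). *Ciita*, the transactivator of class II genes, was at 0.619, 0.452, 0.591, 0.657 and 0.505 FPKM in TG1 to TG5 and at 0.930, 0.563, 0.826, 0.259 and 0.681 FPKM in WT1 to WT5, with no separation (log2 fold change -0.21 ± 0.32). WT4 was the lowest WT mouse for 7 of the 8 class II genes with a mean over 1 FPKM. *H2-DMa*, *H2-DMb1* and *H2-DMb2* encode the chaperone that exchanges the invariant chain peptide. They were at 4.74 ± 1.30, 3.49 ± 1.26 and 4.65 ± 1.19 FPKM in HSD17B1TG and at 6.19 ± 2.45, 2.92 ± 0.863 and 3.44 ± 1.16 FPKM in WT mice, with log2 fold changes of -0.39 ± 0.31, 0.25 ± 0.33 and 0.43 ± 0.30. *H2-Oa* and *H2-Ob*, whose product inhibits H2-DM in B cells, were at or under 1.27 FPKM in every mouse.

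*Ctss* encodes cathepsin S, the endosomal protease that makes the last cuts in the invariant chain (3:95526786-95556403, plus strand). It was at 37.5, 81.9, 66.7, 77.3 and 124 FPKM in TG1 to TG5 and at 26.5, 44.5, 33.3, 22.1 and 19.2 FPKM in WT1 to WT5. TG1 lay within the WT range and the other 4 HSD17B1TG mice lay above it, with means of 77.4 ± 31.2 and 29.1 ± 10.1 FPKM. This was 2.65-fold higher (log2 fold change 1.40 ± 0.32, edgeR, adjusted p = 0.0351), and the adjusted p of fits lacking 1 mouse lay between 0.0146 and 0.0827. It stayed under 0.05 without TG1, TG3 or WT4 and rose above 0.05 without TG2, TG4, TG5, WT1, WT2, WT3 or WT5, while the log2 fold change lay between 1.17 and 1.59. Of 8 further endosomal proteases and class II processing genes tested, 2 were called up, against 2.16% of all genes tested. *Ctsh* was at 25.0, 42.3, 36.7, 47.3 and 68.4 FPKM in TG1 to TG5 and at 22.5, 13.9, 10.5, 24.6 and 16.8 FPKM in WT1 to WT5 (log2 fold change 1.32 ± 0.29, edgeR, adjusted p = 0.0341). *Ctsl* was at 67.6, 148, 132, 153 and 380.5 FPKM and at 37.0, 28.4, 38.9, 83.2 and 49.9 FPKM (log2 fold change 1.89 ± 0.45, edgeR, adjusted p = 0.0396). *Ctsb*, *Ctsd*, *Ctsz*, *Lgmn*, *Ifi30* and *Cst3* had log2 fold changes between -0.75 and 0.33 and did not pass.

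**Figure D4:**
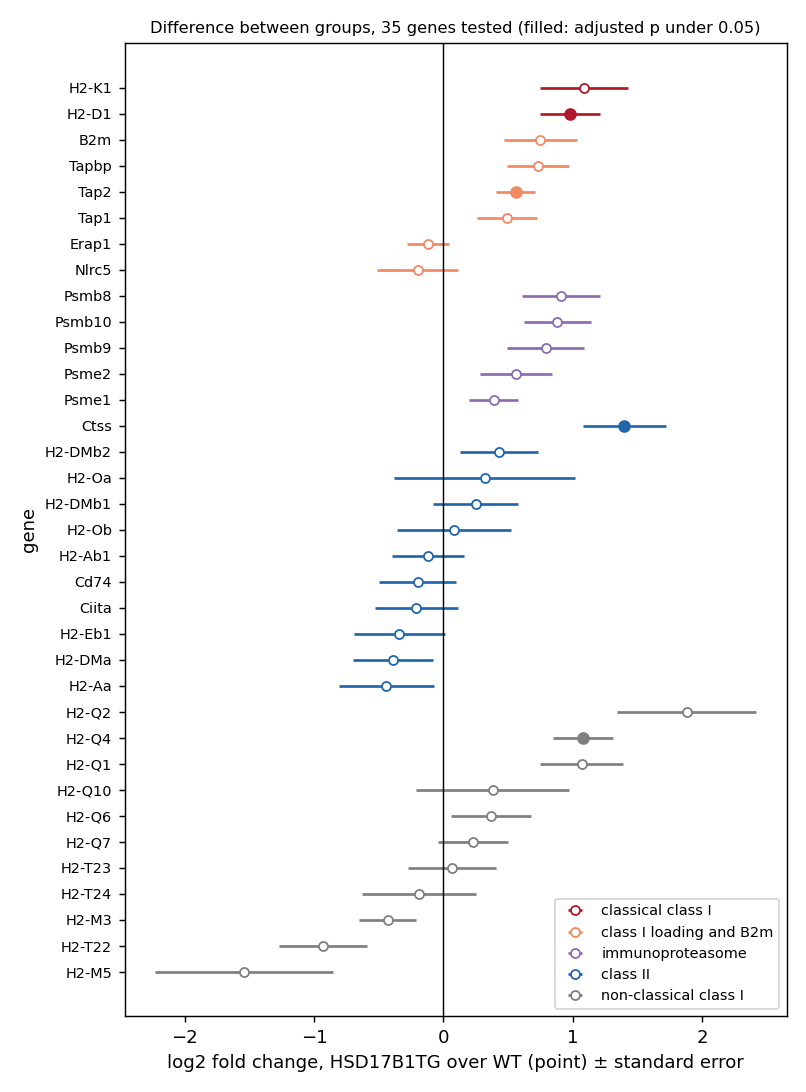
Log2 fold change of HSD17B1TG over WT with its standard error from edgeR for the 35 members tested, grouped by role, with filled points for the 4 genes with an adjusted p under 0.05. Classical class I, loading and immunoproteasome genes lie mostly to the right of 0, class II genes other than *Ctss* lie around 0, and non-classical class I genes range from -1.54 (*H2-M5*) to 1.88 (*H2-Q2*).

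Interferon gamma and type I interferons are known inducers of class I, *Tap1* and the immunoproteasome. *Ifng* itself was at or under 0.490 FPKM in every mouse and was not tested. *Ifngr2*, the signalling chain of its receptor, was at 20.1, 36.1, 27.1, 36.3 and 72.7 FPKM in TG1 to TG5 and at 15.3, 12.6, 13.2, 19.6 and 12.3 FPKM in WT1 to WT5. The groups did not overlap and *Ifngr2* was called up (log2 fold change 1.40 ± 0.31, edgeR, adjusted p = 0.0340), the 1 gene called among 16 tested from a list of 18 interferon and NFKB inducers of MHC, against 2.16% of all genes tested. *Stat2*, which acts with *Irf9* downstream of type I interferon, also rose, by less than 2-fold (log2 fold change 0.95 ± 0.24, edgeR, adjusted p = 0.0444). *Irf1*, a direct activator of class I and immunoproteasome promoters, did not pass (log2 fold change 0.56 ± 0.17, edgeR, adjusted p = 0.0665), nor did *Irf9* (0.75 ± 0.23, edgeR, adjusted p = 0.0715) or *Irf2* (0.60 ± 0.18, adjusted p = 0.0714). Of the whole list 8 genes were higher and 2 were lower at an unadjusted p under 0.05, against 14.7% and 11.4% of all genes tested. No gene passed among 7 class II enhanceosome and related transcription factors (*Rfx5*, *Nfya* and others), 3 other proteasome activators or 5 costimulation genes tested. Class I-like genes outside the *H2-* names had log2 fold changes under 0 in all 7 tested, between -1.72 (*Procr*) and -0.02 (*Fcgrt*), and none passed.

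Cell type markers were summed in each mouse, since in bulk tissue more cells of a type and more RNA per cell cannot be told apart. Summed FPKM of 7 epithelial markers was 607, 2014, 2201, 1617 and 2752 in TG1 to TG5 and 897, 669, 382, 1493 and 421 in WT1 to WT5. TG1 had the lowest and TG5 the highest epithelial sum among HSD17B1TG mice, as for the class I sum, while among WT mice WT4 had the highest epithelial sum and WT5 the highest class I sum (943 CPM, against 901 CPM in WT4). No epithelial marker passed the threshold in edgeR, and 6 of 7 were higher at an unadjusted p under 0.05, against 14.7% of all genes tested. Sums of 6 general leucocyte markers lay between 68.2 and 89.9 FPKM in HSD17B1TG and between 51.4 and 111 in WT mice, those of 10 macrophage markers between 251 and 466 and between 226 and 404, and those of 10 dendritic cell markers between 8.27 and 31.5 and between 9.75 and 17.0. WT4 had the lowest sum of leucocyte, macrophage and dendritic cell markers of the WT mice, as for the class II genes. By gene, 5 of the 6 leucocyte markers had log2 fold changes under 0 and 3 of them (*Ptprc*, *Coro1a* and *Cd52*, from -0.90 to -1.37) were lower at an unadjusted p under 0.05, though none at an adjusted p under 0.05 in edgeR. Of 9 dendritic cell markers tested 6 had log2 fold changes under 0, and *Clec10a* made up 22.9 of the 31.5 FPKM in TG1. *Zbtb46* was below WT in all 5 HSD17B1TG mice (log2 fold change -1.18, edgeR, adjusted p = 0.0528). *Siglech* was above WT in all 5 (1.78, edgeR, adjusted p = 0.0322), at a mean under 1 FPKM in both groups. Such separations were found for 2.65% and 4.04% of the genes tested. Within these lists *Laptm5* (log2 fold change 1.28 ± 0.28, edgeR, adjusted p = 0.0312) and *Cd68* (1.58 ± 0.32, edgeR, adjusted p = 0.0269), both of lysosomes, were called up, and the macrophage receptor *Mertk* was called down.

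Sums of 6 natural killer cell markers lay between 1.99 and 9.51 FPKM in HSD17B1TG and between 10.5 and 89.2 FPKM in WT mice, with 4 of 6 called down, against 2.08% of all genes tested. Sums of 8 neutrophil markers lay between 9.88 and 17.0 FPKM against 3.27 and 6.11 FPKM, with *Retnlg* at 3 counts or fewer in every mouse, and 1 of the 8, *Il1r2*, was called down. Of 5 tested, 4 had log2 fold changes above 0, against 50.2% of all genes tested, and none of these passed the threshold. By mean, *Ly6g* (5.59 against 1.27 FPKM), *S100a9* (2.58 against 0.269 FPKM) and *Mmp9* (2.20 against 0.667 FPKM) carried most of the HSD17B1TG sum. Their adjusted p in edgeR was 0.236, 0.0967 and 0.122. B cell markers summed to between 4.10 and 8.24 FPKM and between 1.43 and 5.12 FPKM, with *Pax5* at 3 counts or fewer, and T cell markers to between 2.24 and 8.52 FPKM and between 2.01 and 3.20 FPKM. Single genes carried most of both sums in HSD17B1TG mice, *Cd79b* (mean 4.74 against 1.65 FPKM) and *Trac* (3.58 against 0.699 FPKM), while *Cd79a* (0.206 against 0.327 FPKM) and *Cd3g* (0.626 against 1.40 FPKM) had lower means than in WT mice. None of *Cd79b*, *Trac* and *Cd3g* was called, and *Cd79a* had too few counts to be tested by edgeR. Stromal sums lay between 439.7 and 1595 FPKM and between 1153 and 1548 FPKM, with 2 of 7 called down. Smooth muscle sums lay between 793 (TG5) and 6880 (TG1) FPKM and between 379.7 and 5554 (WT4) FPKM, and endothelial sums between 14.2 and 55.5 FPKM and between 35.3 and 90.0 FPKM. Markers of the uterus such as *Esr1*, *Pgr* and *Hoxa10* were present in all mice, with sums between 107 and 182 FPKM in HSD17B1TG and between 182 and 440.3 FPKM in WT mice, and 3 of 6 were called down. The part of these markers in the differences of the MHC genes was not tested.

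**Figure D5:**
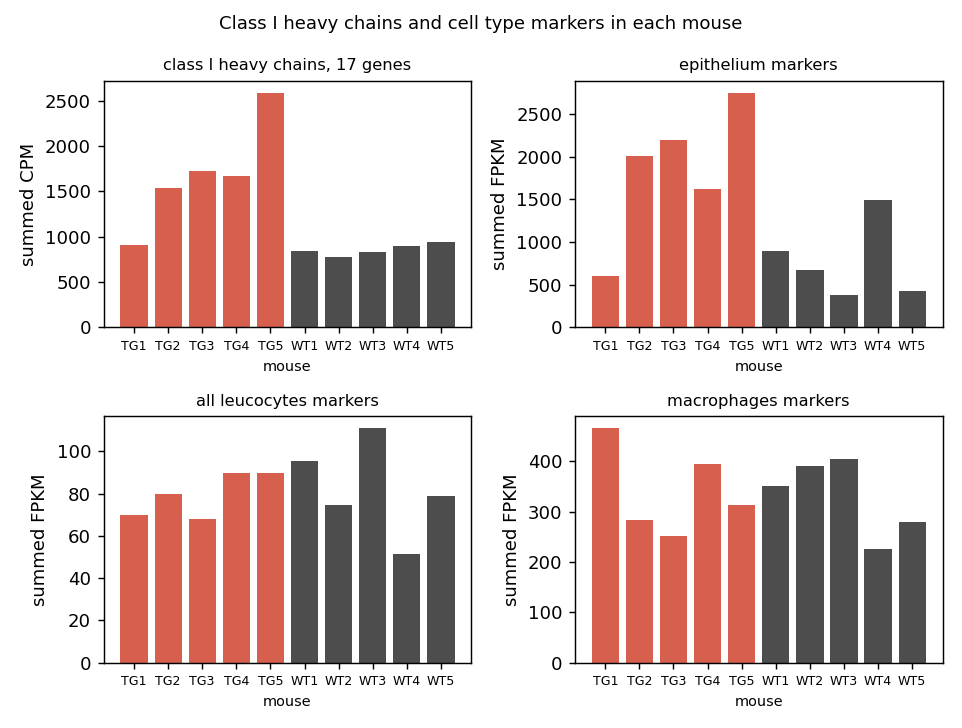
Summed CPM of 17 class I heavy chain genes and summed FPKM of epithelial, general leucocyte and macrophage markers in each mouse, as bars that start at 0, HSD17B1TG in red and WT in grey. The class I and epithelial sums are lowest in TG1 and highest in TG5 among HSD17B1TG mice, while among WT mice WT4 is highest for the epithelial sum and WT5 for the class I sum.

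Several members cannot be measured apart from their relatives with certainty. Of all stretches of 50 bases in their annotated transcripts, 32.0% in *H2-Q6*, 26.4% in *H2-Q7*, 21.8% in *H2-Q4*, 34.5% in *H2-T22*, 12.8% in *H2-D1* and 9.63% in *H2-K1* also occur in another gene. For stretches of 150 bases, the length of 1 read, the shares were 5.99%, 5.90%, 0%, 0.384%, 1.35% and 0%. The counting of reads that match several genes is not given in the sources used here. FVB/N mice carry the q haplotype of H2 and the reference genome is of C57BL/6J mice with the b haplotype, so levels of the polymorphic heavy chains also depend on how reads of one haplotype align to the other, in both groups alike. *B2m*, *Ctss*, *Psmb9*, *Psmb10*, *Nlrc5* and *Ciita* shared no stretch of 50 bases. Another annotated gene overlaps 20 of the 41 members, such as *Patl2* at *B2m* and *Gm11131* at *H2-Q4*, both on the other strand, and *Hmgb1-ps5* at *Ctss*, on the same strand. The strand setting is not given in the sources used here, and how reads in such overlaps were assigned is not known.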

How the data were processed

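Uterine RNA of 10 mice was sequenced by the authors as paired-end reads of 150 bp and mapped with HISAT2 2.0.5 to GRCm38 with Ensembl gene models. For every gene and mouse the deposited table gives the raw count, the signal (the count divided by a DESeq2 size factor of the mouse) and the FPKM. Tests used the deposited counts, levels the deposited FPKM, and the deposited signal entered no result. The program that counted reads, and whether it used strand, are not given in the sources used here. Columns with the authors' own fold changes and p-values, and their tables of called genes and enriched terms, were not used.

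The genotype in the labels set the groups, and mice were numbered within a group. The quasi-likelihood test of edgeR 4.0.16 (R 4.3.3) was run on counts after filterByExpr and TMM scaling, with Benjamini-Hochberg adjustment over all 16993 genes tested. A gene was called when its adjusted p was under 0.05, its level changed more than 2-fold and 1 of the group means exceeded 1 FPKM, the thresholds of the study's methods. The alternatives were DESeq2 1.42.0, other normalizations and filters, limma 3.58.1 with voom, limma on FPKM after log2 with a pseudocount of 1 or 0.1, a fold threshold of 1.5, and each mouse left out in turn. Voom was run with quality weights, which give each mouse its own weight. The code was tested on simulated counts.

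The members, gene lists, marker lists and thresholds were chosen with earlier results of these data known, so they are no independent evidence. Members that were called, or whose groups did not overlap in FPKM, and a fixed set of 11 (*H2-K1*, *H2-D1*, *B2m*, *Tap1*, *Psmb8*, *Nlrc5*, *H2-Aa*, *H2-Ab1*, *H2-Eb1*, *Cd74* and *Ciita*) are given in every mouse. Other members over 1 FPKM are given by mean and SD, and of the other pathway lists the called genes, *Psmb5* to *Psmb7* and at most 3 more with the smallest p. *Ctsh*, *Ctsl* and *Ifngr2* are called genes of those lists. Genes named beyond this rule as examples of a list were chosen after their values were seen, and marker lists are given mainly as sums and counts. Each mouse is a separate animal, and any 2 mice of a group differed by more than 3 counting SDs in 52.2% to 75.3% of genes, so no pair was treated as the same library. The 8 *H2-* pseudogenes of the table are not members.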

Additional observations from a re-analysis of the deposited data

Results flagged for a closer look

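Of 68 groups of 5 mice examined (the levels of members and the 3 proteasome ratios), 4 held a value that stood apart by Dixon's criterion at 95%, which chance alone gives in about 1 of 20 groups. *Psmb10* was 71.1 FPKM in TG5, with the other HSD17B1TG mice between 29.3 and 39.2 FPKM, and the *Psmb10*/*Psmb7* ratio of TG5 was 6.38, with the others between 1.62 and 2.92. *Psme2* was 122 FPKM in TG5, with the others between 49.1 and 66.2 FPKM. *H2-Q1* was 1.46 FPKM in WT1, with the other WT mice between 0.717 and 0.824 FPKM.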

How the results depend on the processing

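The 367 genes called up and 354 called down by edgeR became 906 and 666 with DESeq2, 1083 and 665 with voom and quality weights, and 416 and 228 with limma on log2(FPKM + 1). Members called up were 5 with DESeq2, 4 with voom, 1 with limma on log2(FPKM + 1) and 1 with upper quartile scaling, and members with an adjusted p under 0.05 were 10 with DESeq2 and 11 with voom. No member was called down in any of these fits. With each mouse left out in turn, genes called up ranged from 38 to 888 and down from 27 to 666, members called up from 0 to 7 and down from 0 to 0, and members with an adjusted p under 0.05 from 0 to 11. The log2 difference ranged from 0.32 to 0.56 for *Psmb8*/*Psmb5*, from 0.57 to 0.87 for *Psmb9*/*Psmb6* and from 0.58 to 1.08 for *Psmb10*/*Psmb7*, and each was largest without TG1. Over the same fits the log2 fold change of *H2-T23* and *H2-T24* ranged from -0.14 to 0.25 and from -0.44 to 0.03. The sign of *H2-T23* turned with upper quartile scaling (-0.01), without TG4 (-0.03) and without WT2 (-0.14), and that of *H2-T24* with voom (0.05) and without TG5 (0.03). The cause was not tested. Of 576 alternative fits of named members, 517 kept direction and side of the threshold, 32 lost significance, 22 gained it and 5 changed sign. All 32 losses were in the 4 members that had passed, 11 of 18 fits for *Tap2* and 7 of 18 for each of *Ctss*, *H2-D1* and *H2-Q4*. No paired analysis was possible because the replicate numbers were given in accession order and the numbers in the sample titles are not explained. Depth limits the 6 members that did not pass edgeR's filter, and for members over 1 FPKM the spread between mice was wider in HSD17B1TG for *H2-D1*, *H2-K1* and *B2m* and wider in WT for *Cd74*, *H2-Aa* and *H2-Ab1*. Sequence shared among heavy chains adds an uncertainty that the replicates do not show.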

Other observations

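Among the *H2-* pseudogenes left out of the members, *H2-T10* was at 4.18 ± 0.649 FPKM in HSD17B1TG and 4.92 ± 1.03 FPKM in WT mice (SD, n = 5; log2 fold change -0.24). *H2-K2*, a neighbour in name of *H2-K1*, was at 0.541 ± 0.229 against 1.02 ± 0.458 FPKM (log2 fold change -0.92), while *H2-Ea-ps*, the inactive alpha chain gene of I-E in the reference strain, was at 2.19 ± 1.36 against 2.64 ± 1.23 FPKM (log2 fold change -0.28). None passed the threshold in edgeR, with adjusted p of 0.462, 0.235 and 0.785.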
